A study of Homo sapiens with 12 samples.

Results

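The genes described here are the collagen genes, taken as every gene symbol in the count files that consists of COL, a type number, A and a chain number. The rule gave 42 genes of the 45320 in the files and used no measured value. They comprised 11 fibrillar genes, the 6 type IV genes of basement membranes, 10 genes of the FACIT class (fibril-associated collagens with interrupted triple helices), 4 transmembrane genes and 11 of other types.

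RNA was sequenced from cells labelled as Ishikawa endometrial cancer cells, the name of an established human endometrial adenocarcinoma line. One arm, labelled control, carried shNC and the other was the ARID1A knockdown, shARID1A. ARID1A encodes a subunit of a SWI/SNF chromatin remodeller. Both arms were grown for at least 4 days without phenol red and with charcoal-treated serum, which is low in steroids, and were then given vehicle (DMSO), 10 nM 17-beta-estradiol (E2), or 10 nM E2 together with 100 nM of the estrogen receptor antagonist fulvestrant for 8 h. The zeros of the fulvestrant dose are typed as letters in the labels. Each of the 6 groups had 2 libraries, which makes 6 libraries per arm. The labels name neither the hairpin sequence nor the number of hairpins, clones or separate cultures. The p-values therefore weigh differences between groups only against the spread between libraries of a group, which may be technical. The effect of ARID1A loss cannot be told apart from any other difference between the cell lines.

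Collagens are triple helices of chains that each carry glycine at regular steps. Fibrillar collagens form the fibres of connective tissue, type IV collagen forms the sheet-like network of basement membranes that epithelia rest on, FACIT collagens sit on fibril surfaces, and transmembrane collagens span the plasma membrane. Chains are hydroxylated and folded in the endoplasmic reticulum, exported, trimmed in many types outside the cell, and crosslinked. In the endometrium, basement membrane collagen underlies the glands while fibrillar collagen is mainly a product of stromal cells.

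Libraries held 28810351 to 38657162 counts. The targeted gene ARID1A stood at 109.9 to 123.3 CPM (counts per 1000000 counts, after scaling for library composition) in shNC and at 53.76 to 61.67 CPM in shARID1A. Its log2 fold change was -1.03 with an SE of 0.04 (adjusted p = 3.02e-19). Of 10 epithelial markers, KRT8 was at 563.4 to 618.6 CPM in shNC and 342.5 to 367.2 CPM in shARID1A, and KRT18 was at 279.7 to 320.3 and 193.3 to 216.4 CPM. KRT7 went the other way, at 390.9 to 451.7 CPM in shNC and 453.5 to 557.9 CPM in shARID1A (log2 fold change 0.23, SE 0.03, adjusted p = 1.12e-07). ELF3 was at 44.68 to 58.2 CPM in shNC and 36.85 to 43.02 CPM in shARID1A. The remaining markers were low or near 0. CDH1, which encodes E-cadherin, was at 0 to 0.6578 CPM in shNC and 0.06391 to 0.4117 CPM in shARID1A. EPCAM was at 1.282 to 1.973 CPM in shNC and lower, at 0.3834 to 1.024 CPM, in shARID1A (log2 fold change -1.03, SE 0.24). KRT19, CLDN4, ESRP1 and GRHL2 averaged 0.0645, 0.157, 0.00562 and 0.0168 CPM over the 12 libraries. These low epithelial markers stand in contrast to the label of an adenocarcinoma line, and the identity of the cells was not tested. The summed epithelial list was 1312 to 1438 CPM in shNC and 1029 to 1174 CPM in shARID1A. The stromal fibroblast list summed to 8.359 to 10.37 CPM in shNC and 6.178 to 7.605 CPM in shARID1A, with THY1 and FAP at 0 in every library. The immune list summed to 2.03 to 3.898 CPM over the 12 libraries, and nearly all of the endothelial sum, 93.46 to 117.8 CPM, was ESAM. In bulk RNA, fewer cells of a type and less RNA per cell cannot be told apart. The part of these marker differences in the collagen results was not tested.

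Stretches of promoter are shown for the collagen genes whose RNA differed most between the arms, and for the type IV pairs of chromosomes 13 and X. Paired type IV genes are transcribed away from each other from neighbouring starts. No stretch is printed for the chromosome 2 pair, COL4A3 and COL4A4. RefSeq (GRCh38.p14) gave 40 windows, each of 250 bases before to 50 bases after a start, for 30 of the 42 genes and for 16 of the 20 genes that could be tested. Only bases before the start are printed, 5′ to 3′ on the strand of the named gene. Capitals mark every match, on either strand, to GGGCGG (the GC box), CCAAT or TATAAA. The pair of adjoining COL18A1 matches on the reverse strand overlap by 1 base.
COL7A1, chr3:48595330-48595579, minus strand: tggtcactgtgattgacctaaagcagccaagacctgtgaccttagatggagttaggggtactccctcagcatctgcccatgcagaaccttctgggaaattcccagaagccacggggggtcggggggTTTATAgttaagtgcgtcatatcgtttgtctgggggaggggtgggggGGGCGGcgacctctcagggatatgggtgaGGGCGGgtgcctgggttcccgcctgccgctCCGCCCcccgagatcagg
COL16A1, chr1:31704018-31704267, minus strand: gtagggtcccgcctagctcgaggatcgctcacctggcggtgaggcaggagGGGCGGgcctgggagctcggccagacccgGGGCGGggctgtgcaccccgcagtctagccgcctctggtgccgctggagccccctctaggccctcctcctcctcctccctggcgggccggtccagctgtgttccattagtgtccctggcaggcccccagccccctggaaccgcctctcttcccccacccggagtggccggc
COL18A1, upstream start, chr21:45404915-45405164, plus strand: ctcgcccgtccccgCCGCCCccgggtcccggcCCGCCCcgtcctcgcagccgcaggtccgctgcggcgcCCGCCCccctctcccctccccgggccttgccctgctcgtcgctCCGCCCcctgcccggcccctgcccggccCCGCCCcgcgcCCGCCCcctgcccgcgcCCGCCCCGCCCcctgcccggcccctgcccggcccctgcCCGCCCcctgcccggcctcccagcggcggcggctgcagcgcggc
COL18A1, downstream start, chr21:45455272-45455521, plus strand: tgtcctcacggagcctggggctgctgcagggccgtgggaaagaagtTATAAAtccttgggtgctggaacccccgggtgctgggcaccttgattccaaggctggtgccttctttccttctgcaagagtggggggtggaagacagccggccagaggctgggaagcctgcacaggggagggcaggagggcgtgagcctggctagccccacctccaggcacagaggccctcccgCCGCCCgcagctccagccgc
COL4A6, start nearest COL4A5, chrX:108439459-108439708, minus strand: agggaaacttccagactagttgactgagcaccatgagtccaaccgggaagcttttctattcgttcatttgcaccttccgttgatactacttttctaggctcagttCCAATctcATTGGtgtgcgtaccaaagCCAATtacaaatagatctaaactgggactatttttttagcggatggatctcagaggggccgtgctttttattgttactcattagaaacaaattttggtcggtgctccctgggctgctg
COL4A2, all bases between the starts of COL4A1 and COL4A2, chr13:110307158-110307283, plus strand: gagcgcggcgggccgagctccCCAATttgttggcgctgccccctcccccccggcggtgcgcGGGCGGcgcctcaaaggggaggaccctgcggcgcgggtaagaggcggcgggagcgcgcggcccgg

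The GC box letters occurred in 24 of the 40 collagen windows, beside 45.0% of all 35116 RefSeq windows of that length. By gene they occurred in 21 of the 30 with a window. Some windows overlap, as those of COL4A1 and COL4A2 do by 226 bases, so the 40 are not separate promoters. CCAAT occurred in 12 of the 40 windows (34.6% of all windows) and TATAAA in 6 (11.5% of all). The AP-1 letters TGANTCA were in 0 of the 40 windows and in 7.71% of all. The upstream COL18A1 window held 9 GC box matches and no TATAAA, and the downstream one 1 GC box and 1 TATAAA. COL7A1 held 3 GC boxes with a TATAAA match on the reverse strand, and COL16A1, which fell as COL7A1 did, held 2 GC boxes and neither of the other motifs. The COL4A2 stretch is 80.2% G and C with 1 CCAAT and 1 GC box, and the COL4A6 stretch is 44% G and C with 3 CCAAT matches. These are letter matches only.

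The collagens made a small, uneven part of the RNA. They took 0.266 to 0.287% of all counts in shNC libraries and 0.245 to 0.257% in shARID1A libraries. Scaled for library composition, their sum was 2581 to 2788 CPM in shNC and 2474 to 2682 CPM in shARID1A, so that the arms overlapped. A filter on low counts (filterByExpr, which needs enough counts in at least 1 group's worth of libraries) passed 20 of the 42 genes. These were 4 of 11 fibrillar, 6 of 6 basement membrane, 4 of 10 FACIT, 1 of 4 transmembrane and 5 of 11 other genes. The 17 that averaged 1 CPM or more held 99.94% of all collagen counts, and each had counts in all 12 libraries. The other 3, COL17A1, COL8A1 and COL27A1, passed with at most 18, 14 and 12 counts in any library.

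Compared per length, as RPKM (CPM divided by the counted exon length in kilobases), the basement membrane chains COL4A2 and COL4A1 were the most abundant collagen RNAs in shNC cells, at 195.9 ± 9.57 and 104.9 ± 1.40 RPKM (SD, n = 6). COL7A1, whose trimer forms the anchoring fibrils that tie epithelial basement membrane to stroma, followed at 71.2 ± 3.52 RPKM. COL5A1, a chain of the fibril-nucleating type V collagen, was at 51.7 ± 3.45 RPKM and COL15A1, a basement membrane proteoglycan collagen, at 35.5 ± 1.66 RPKM. COL9A3 at 22.1, COL12A1 at 17.8, COL6A1 at 14.2 and COL18A1 at 8.11 RPKM came next. The libraries of neighbouring genes did not overlap in any of these first 9 places. Below them, COL1A1 at 4.70 RPKM overlapped with COL4A5 at 4.24, and COL4A5 with COL4A4 at 3.35 RPKM. COL16A1 (1.99 RPKM), COL9A2 (1.70) and COL4A3 (1.46) overlapped each with the next, as did COL4A6 (0.236 RPKM) and COL11A2 (0.213 RPKM). By mean CPM in shNC, where length is not taken into account, COL7A1 (780.9) stood above COL4A2 (728.3), although 1 shNC library, replicate 1 with E2 plus fulvestrant, had COL4A2 higher. In shARID1A the order of these 3 genes was COL4A2, COL4A1 and COL7A1 on both scales.

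**Figure D1:**
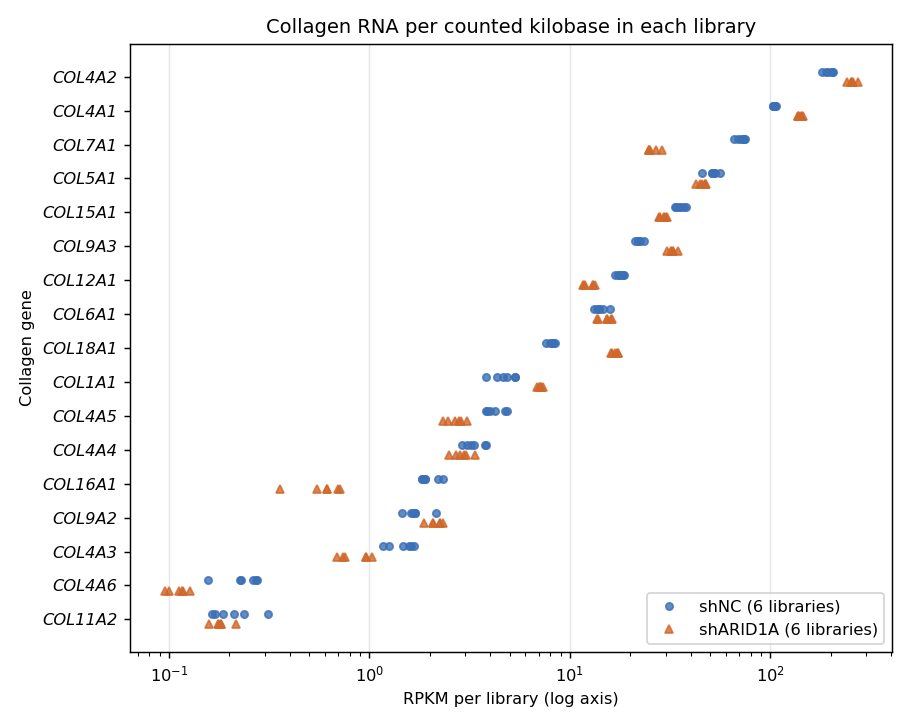
Collagen RNA per counted kilobase for the 17 genes averaging 1 CPM or more. Each point is 1 library on a log axis of RPKM, with circles for shNC and triangles for shARID1A, and genes ordered by their shNC mean. COL4A2 and COL4A1 lead in both arms, and COL7A1, COL16A1 and COL4A6 show arms that stand apart with shARID1A lower.

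The level per length depends on the exons the authors counted, which were partial for some genes. The counted length was under 50% of that in GENCODE v29 for 11 of the 42 collagens, among them COL4A2 (19.3%), COL4A1 (23.6%), COL4A3 (28.9%), COL15A1 (34.8%) and COL5A1 (38.6%). The median was 87.0% for the collagens and 78.0% for 15108 protein-coding genes, of which 26.8% were under 50%. Both arms were counted over the same exons.

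For several collagens built from different chains, some partner chains had at most a few counts. COL1A1, the main chain of type I collagen, had 787 to 1722 counts per library, while COL1A2, its partner, had at most 3. COL6A1 had 1388 to 2103 counts, whereas its partners COL6A2 and COL6A3 had at most 4 and 9. COL6A2 was counted over only 34.0% of its GENCODE v29 length. COL9A2 and COL9A3 were counted in every library, and COL9A1, the third chain of type IX collagen, had 0 counts in all 12. COL5A1 had 5413 to 7920 counts, and its partners COL5A2 and COL5A3 had at most 4 and 2, but over only 704 and 828 counted bases. A gene at 0 counts has a floor of 3 counts, 0.0776 to 0.104 CPM, which covers counting error only. In every library more genes held exactly 2 counts than exactly 1, and the floor doubles if each read pair gave 2 counts.

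The other genes below the filter had at most 10 counts in any library. The fibrillar genes were COL11A1 (at most 6 counts), COL24A1 (6), COL2A1 (8) and COL3A1 (7), and the transmembrane genes were COL13A1 (8), COL23A1 (2) and COL25A1 (6). Among FACIT genes, COL20A1 had at most 10 counts, COL21A1 6 and COL14A1 5, and COL19A1 and COL22A1 had 0 in every library. COL28A1 had at most 4 counts, COL6A6 5 and COL8A2 2, and COL6A5 had 0. COL3A1 and COL1A2, which stromal fibroblasts make in quantity, were thus among the genes near 0.

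The comparison of shARID1A with shNC asked how collagen RNA differs when ARID1A is lowered. Averaged over the 3 treatments, 14 of the 20 tested collagens differed at an adjusted p under 0.05 (edgeR quasi-likelihood test, Benjamini-Hochberg over 17020 genes), 6 higher and 8 lower. Over all genes 43.1% were called, 20.3% higher and 22.8% lower. The median log2 fold change was -0.19 for the 20 collagens and -0.02 for all genes, and the median absolute change 0.47 and 0.21. The 6 shARID1A libraries did not overlap with the 6 shNC libraries for 12 of the 20, 5 higher and 7 lower, beside 22% of all genes (11.4% higher and 10.6% lower). COL18A1, COL1A1, COL9A3, COL4A1, COL4A2 and COL9A2 rose, and COL7A1, COL16A1, COL4A6, COL4A3, COL4A5, COL12A1, COL15A1 and COL5A1 fell.

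**Figure D2:**
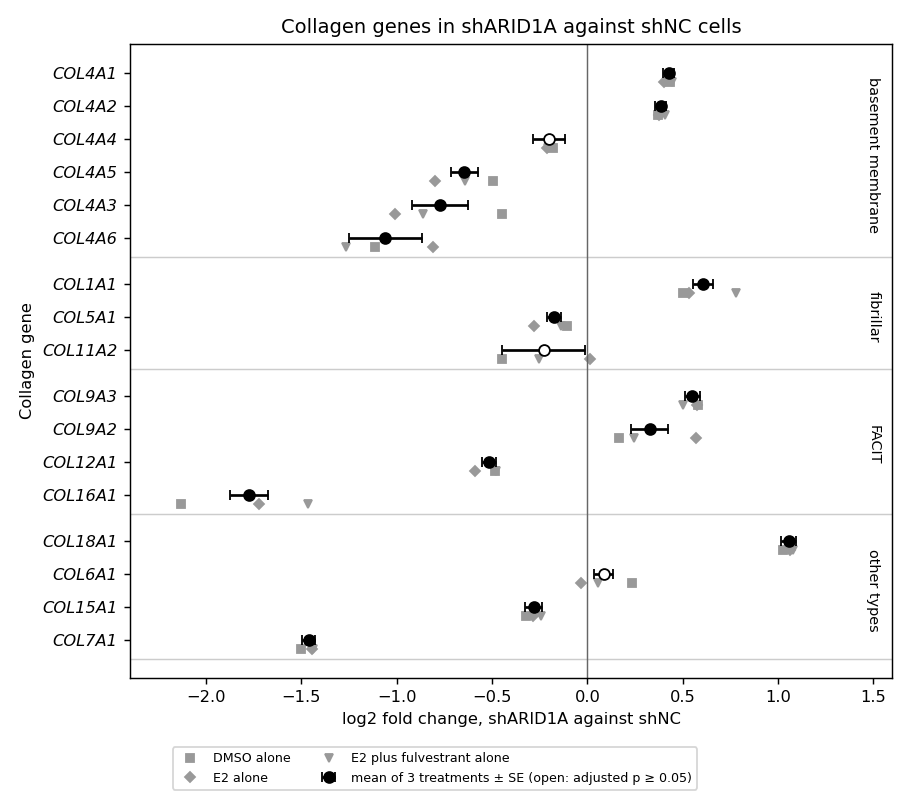
Log2 fold change of the 17 collagen genes averaging 1 CPM or more in shARID1A against shNC, by class. Circles with bars are the mean over 3 treatments ± SE, open where the adjusted p is 0.05 or more, and grey marks give each treatment alone. COL18A1 lies furthest right at 1.05 and COL16A1 furthest left at -1.77, and the basement membrane class has members on both sides of 0.

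Type IV collagen is built from 6 chains whose genes lie in 3 pairs, and the pairs went different ways. On chromosome 13, COL4A1 (110813365 to 110959478, hg19, counted exons) and COL4A2 (110959614 to 111164480) make the chains found in nearly all basement membranes. The hg19 positions of genes below are likewise spans of the counted exons. COL4A1 was at 368.0, 358.9, 367.2, 371.7, 364.8 and 360.2 CPM in shNC and at 504.7, 478.0, 479.9, 495.8, 501.7 and 484.4 CPM in shARID1A, in the order DMSO, E2 and E2 plus fulvestrant with 2 libraries each, which is kept for other genes below. Every shARID1A library was higher than every shNC library, and COL4A1 rose by 0.43 on the log2 scale (SE 0.03, adjusted p = 1.58e-13). COL4A2 was at 672.9 to 765.9 CPM (median 736.6) in shNC and 895.7 to 1014 CPM (median 951.3) in shARID1A, again without overlap. It rose by 0.38 (SE 0.03, adjusted p = 2.29e-12), and its ratio to COL4A1 per length was 1.87 ± 0.07 in shNC and 1.81 ± 0.07 in shARID1A (SD, n = 6).

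The X chromosome pair fell. COL4A5 (X, 107683074 to 107940166, hg19) and COL4A6 (X, 107386780 to 107682727, hg19) encode chains of the basement membrane of skin and smooth muscle. COL4A5 was at 25.78 to 32.95 CPM (median 27.77) in shNC and 15.78 to 20.77 CPM (median 18.61) in shARID1A. The arms did not overlap, and the log2 fold change was -0.65 (SE 0.07, adjusted p = 8.4e-09). COL4A6, with 28 to 85 counts per library, was at 2.245, 2.696, 2.265, 1.566, 2.600 and 2.724 CPM in shNC and at 1.156, 1.113, 0.9906, 1.162, 1.269 and 0.9452 CPM in shARID1A. The lowest shNC library, replicate 2 with E2, was still above every shARID1A library, and the log2 fold change was -1.06 (SE 0.19, adjusted p = 2.96e-05).

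On chromosome 2, COL4A3 (228149020 to 228176586, hg19, counted exons) fell while COL4A4 (227872041 to 228028829, hg19, counted exons) was not called. COL4A3 was counted over only 28.9% of its GENCODE v29 length, so these spans do not give the distance between the starts. COL4A3 was at 3.095 to 4.416 CPM (median 4.005) in shNC and 1.811 to 2.71 CPM (median 2.26) in shARID1A, and its log2 fold change was -0.77 (SE 0.15, adjusted p = 6.11e-05). COL4A4 was at 15.23 to 20.1 CPM in shNC and 13.16 to 17.63 CPM in shARID1A, with overlapping arms, and its log2 fold change was -0.20 (SE 0.08, adjusted p = 0.0512). COL4A4 lay close to the threshold. Leaving out 1 library at a time gave -0.28 to -0.14, with adjusted p-values from 0.0113 (without replicate 2 of shARID1A with E2) to 0.23 (without replicate 2 of shNC with DMSO), and 8 of the 12 fits left it uncalled. The combined CPM of COL4A1 and COL4A2 was 35.4 ± 3.87 times that of COL4A5 and COL4A6 in shNC and 74.7 ± 7.51 times in shARID1A (SD, n = 6 each).

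In RefSeq (GRCh38.p14) the starts of COL4A1 and COL4A2 lie 127 bases apart on opposite strands, and the sequence between them is the COL4A2 stretch printed above. The starts of COL4A4 and COL4A3 are 419 bases apart. COL4A5 starts 380 bases from the nearer COL4A6 start, whose upstream stretch is printed above, and 1416 bases from a second COL4A6 start. The paired genes on chromosomes 13 and X thus shared a direction within the pair, and both genes of each pair were called. For the chromosome 2 pair both log2 fold changes were negative, -0.77 for COL4A3 and -0.20 for COL4A4, but only COL4A3 was called.

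**Figure D3:**
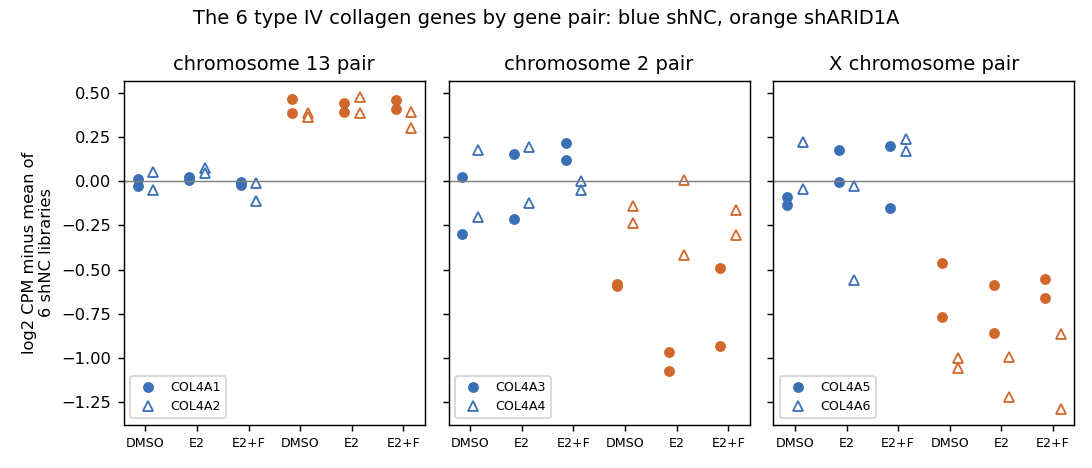
The 6 type IV genes by gene pair, as log2 CPM minus the mean of the 6 shNC libraries, with 1 point per library, blue for shNC and orange for shARID1A, and E2+F for E2 plus fulvestrant. Both chromosome 13 genes lie above 0 in all 6 shARID1A libraries and both X genes below 0, while COL4A4 overlaps between arms.

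Fibrillar genes were few and mixed, with 1 higher and 1 lower of 4 tested, beside 20.3% and 22.8% of all genes. COL1A1 (chromosome 17, 48263205 to 48278993, hg19) was at 35.14, 32.12, 35.09, 30.71, 28.57 and 25.22 CPM in shNC and at 47.80, 47.54, 48.57, 46.55, 45.46 and 46.79 CPM in shARID1A. All 6 shARID1A libraries were higher, and COL1A1 rose by 0.60 (SE 0.05, adjusted p = 4.64e-11). COL5A1 was at 197.7 to 242.8 CPM (median 224) in shNC and 182.7 to 205.3 CPM (median 199.5) in shARID1A, so that the arms overlapped. Its log2 fold change was -0.18 (SE 0.04, adjusted p = 0.000197). COL11A2, a type XI chain typical of cartilage, was at 1.065 to 2.033 and 1.029 to 1.406 CPM, and its log2 fold change was -0.23 (SE 0.22, adjusted p = 0.426). COL27A1 had 0 to 12 counts per library and a log2 fold change of 1.93 with an SE of 0.97 (adjusted p = 0.109). Without replicate 1 of shNC with DMSO, which holds 12 of its counts, that adjusted p was 0.0382.

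All 4 FACIT genes tested were called, 2 in each direction, beside 43.1% of all genes. The other 6 FACIT genes did not pass the filter. COL16A1 (chromosome 1, 32117848 to 32169920, hg19), a minor collagen that associates with fibrils and with fibrillin, fell from 21.82, 17.66, 20.51, 17.72, 17.10 and 17.15 CPM in shNC to 3.336, 5.732, 6.518, 5.136, 5.729 and 6.650 CPM in shARID1A. No shARID1A library came near the shNC range, and the log2 fold change was -1.77 (SE 0.10, adjusted p = 1.47e-15). COL12A1, which binds type I fibrils in tissues under load, fell from 186.1 to 205.3 CPM (median 197) to 128.2 to 146.8 CPM (median 137.6), and its log2 fold change was -0.52 (SE 0.04, adjusted p = 2.22e-13).

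The type IX genes rose. COL9A3 (chromosome 20, 61447596 to 61472511, hg19) was at 95.65 to 105.5 CPM (median 99.18) in shNC and 137.3 to 157.1 CPM (median 146) in shARID1A, without overlap, and rose by 0.55 (SE 0.04, adjusted p = 3.72e-13). COL9A2 was at 5.775 to 8.526 CPM in shNC and 7.46 to 9.266 CPM in shARID1A, and rose by 0.33 (SE 0.10, adjusted p = 0.00596) with 1 shNC library, replicate 1 with DMSO, inside the shARID1A range. Type IX collagen coats the cartilage fibril, and COL9A1, its remaining chain, had no counts here.

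The only transmembrane gene tested, COL17A1, a hemidesmosome collagen of epithelia, was at 0.232 to 0.5011 CPM in shNC and 0.06607 to 0.6175 CPM in shARID1A. Its log2 fold change was -0.18 (SE 0.43, adjusted p = 0.767). No direction was read from it, since the highest library had 18 counts.

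Among other types, COL7A1 and COL18A1 moved furthest, in opposite directions. COL7A1 (chromosome 3, 48601506 to 48632593, hg19) was at 804.4, 807.5, 782.9, 819.7, 718.7 and 752.2 CPM in shNC and at 273.3, 295.3, 273.7, 314.1, 271.1 and 271.2 CPM in shARID1A. The highest shARID1A library was under 50% of the lowest shNC library, and COL7A1 had a log2 change of -1.46 (SE 0.03, adjusted p = 1.95e-25), or 2.76-fold lower. Its share of summed collagen RPKM was 13.2 ± 0.59% in shNC and 4.37 ± 0.21% in shARID1A, while that of COL4A2 was 36.3 ± 0.62% and 43.2 ± 0.74% (SD, n = 6).

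COL18A1 (chromosome 21, 46875424 to 46933634, hg19), the basement membrane collagen whose C-terminal fragment is endostatin, was at 68.39, 68.28, 70.25, 67.91, 65.99 and 63.30 CPM in shNC and at 134.9, 143.0, 144.0, 144.7, 139.3 and 133.4 CPM in shARID1A. Every shARID1A library was far above the shNC range, and COL18A1 rose by 1.05 on the log2 scale (SE 0.04, adjusted p = 2.25e-20), or 2.08-fold. Of its counted exon bases, 16.9% are shared with SLC19A1 on the opposite strand, and reads of the 2 genes cannot be told apart there. The ratio of COL7A1 to COL18A1 in CPM was 11.6 ± 0.47 in shNC and 2.02 ± 0.09 in shARID1A (SD, n = 6).

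COL15A1, like COL18A1 a collagen with endostatin-like sequence, went the other way. It was at 77.59 to 87.38 CPM (median 82.05) in shNC and 64.06 to 70.35 CPM (median 68.11) in shARID1A, without overlap, and its log2 fold change was -0.28 (SE 0.04, adjusted p = 2.75e-06). COL6A1, a chain of the beaded filaments, was at 46.78 to 56.18 and 48.61 to 57.38 CPM and was not called (log2 fold change 0.09, SE 0.05, adjusted p = 0.17). COL8A1, a short-chain network collagen with at most 14 counts, was at 0 to 0.348 and 0 to 0.4473 CPM, and its log2 change was not called (-0.35, SE 0.74, adjusted p = 0.739).

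**Figure D4:**
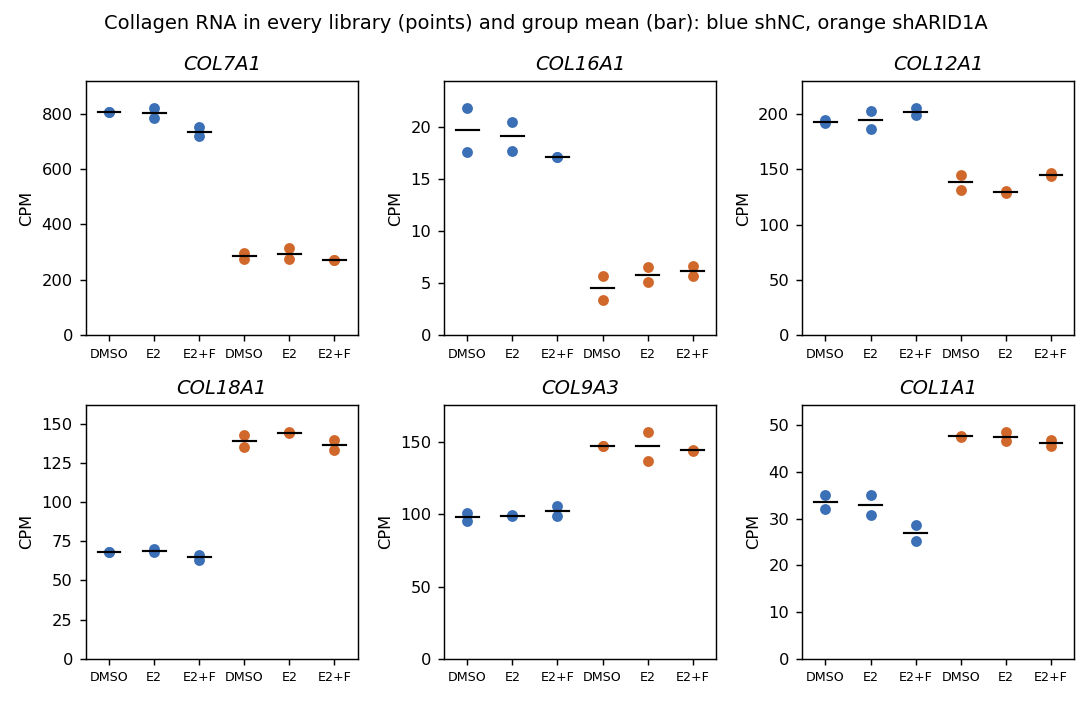
CPM of 6 collagen genes in every library, with points for libraries and bars for group means, blue for shNC and orange for shARID1A, and E2+F for E2 plus fulvestrant. COL7A1, COL16A1 and COL12A1 are lower and COL18A1, COL9A3 and COL1A1 higher in every shARID1A library, and the treatments lie close together within an arm.

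The arm difference was then read within each treatment. In DMSO 5 collagens were higher and 6 lower of 20, beside 19.2% of all genes called (9.7% higher and 9.5% lower). With E2 the counts were 6 higher and 7 lower (27.2% of all genes, 13.4% higher and 13.8% lower), and with E2 plus fulvestrant 5 higher and 7 lower (24.2%, 11.4% and 12.8%). The 3 comparisons use different libraries but the same arms and a shared estimate of the spread, so their agreement is not independent support. Of the 20 genes, 10 were called the same way in all 3. These were COL18A1, COL1A1, COL9A3, COL4A1 and COL4A2, higher, and COL7A1, COL16A1, COL12A1, COL15A1 and COL4A5, lower. Of all 17020 genes, 1151 were higher and 1107 lower in all 3.

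COL18A1 rose by 1.02 in DMSO, 1.06 with E2 and 1.08 with E2 plus fulvestrant (SE 0.06 to 0.07 each). COL7A1 had log2 fold changes of -1.50, -1.45 and -1.44 (SE 0.06 each), and COL4A1 of 0.43, 0.40 and 0.44 (SE 0.05 each). COL16A1 ran from -2.13 (SE 0.18) in DMSO to -1.72 (SE 0.16) with E2 and -1.47 (SE 0.17) with E2 plus fulvestrant. Neither step passed the test of the difference (0.41, SE 0.27, and 0.26, SE 0.25, adjusted p = 0.842 and 1). The whole change of COL16A1 from DMSO to E2 plus fulvestrant was not tested. COL5A1 passed the test with E2 at -0.28 (SE 0.06, adjusted p = 0.000988). It missed it in DMSO at -0.11 (SE 0.06, adjusted p = 0.258), and after fulvestrant was added to E2 at -0.14 (SE 0.06, adjusted p = 0.119). The knockdown effect of COL5A1 with E2 minus that in DMSO was -0.17 (SE 0.09, adjusted p = 0.808), which missed the threshold. COL1A1 rose by 0.50 in DMSO, 0.53 with E2 and 0.78 with E2 plus fulvestrant (SE 0.09 each), and the effect with fulvestrant minus that with E2 alone was 0.24 (SE 0.13, adjusted p = 1).

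Calls within 1 treatment were less secure for 5 genes. Leaving out either shARID1A library or replicate 2 of shNC with DMSO took COL4A6 in DMSO above the threshold (adjusted p 0.0736 to 0.117), and leaving out replicate 2 of shARID1A with E2 plus fulvestrant did so in that treatment (0.058). COL4A5 in DMSO was lost without replicate 1 of shARID1A (0.148), and COL9A2 with E2 without replicate 1 of shNC (0.0655). COL4A3 was lost with E2 without replicate 2 of shNC (0.0927), and with E2 plus fulvestrant without replicate 1 of shNC (0.0669) or replicate 2 of shARID1A (0.13). COL15A1 was lost in each treatment without 1 library: in DMSO without replicate 1 of shNC (0.101) or replicate 2 of shARID1A (0.0654), with E2 without replicate 1 of shARID1A (0.0604), and with E2 plus fulvestrant without replicate 1 of shNC (0.251) or of shARID1A (0.138). In the mean of 3 treatments the 14 calls held without any 1 library.

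The hormone comparisons asked whether 8 h of E2, or fulvestrant added to E2, shifted collagen RNA. By edgeR's test, 0 of 20 collagens were called for E2 or for fulvestrant in either arm, or for the difference of either effect between arms. Of all genes, 0.00588% were called for E2 in shNC and for fulvestrant in each arm, 0.0235% for E2 in shARID1A, 0.0294% for the difference of the E2 effect and 0.0118% for that of fulvestrant. At an unadjusted p under 0.05 there were 2 collagens for E2 in shNC (3.85% of all genes), 0 for E2 in shARID1A (6.61%), 4 for fulvestrant in shNC (7.78%), 1 for fulvestrant in shARID1A (9.78%), 1 for the difference of the E2 effect (6.35%) and 0 for that of fulvestrant (3.48%). DESeq2 also called 0 collagens in each. ESR1, the gene of estrogen receptor alpha, was at 0.0686 to 1.085 CPM.

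For the 17 genes averaging 1 CPM or more, the E2 effect in shNC ran from -0.37 (COL4A6, SE 0.28) to 0.20 (COL4A5, SE 0.11), and in shARID1A from -0.44 (COL4A3, SE 0.29) to 0.35 (COL16A1, SE 0.23). The best measured genes moved little, with COL4A1 at 0.02 and -0.01 (SE 0.05 each) and COL7A1 at -0.01 (SE 0.05) and 0.05 (SE 0.06). Fulvestrant gave -0.29 (COL1A1, SE 0.10) to 0.49 (COL4A6, SE 0.28) in shNC and -0.26 (COL11A2, SE 0.39) to 0.32 (COL4A3, SE 0.30) in shARID1A. COL1A1 with fulvestrant in shNC had the smallest unadjusted p of the fulvestrant comparisons, 0.00643, with an adjusted p of 0.55. Both libraries with fulvestrant, at 28.57 and 25.22 CPM, were under both with E2 alone, at 35.09 and 30.71 CPM. The smallest for E2 in shNC was that of COL27A1 (0.0104), which had 0 counts in both E2 libraries.

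Genes that modify, export, crosslink or bind collagen were read from lists by role. Of 59 listed genes 54 were in the files and 38 passed the filter. Of the 38, 11 were higher and 15 lower in the mean of 3 treatments. Over all genes 43.1% were called, 20.3% higher and 22.8% lower.

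Enzymes and partners of prolyl and lysyl hydroxylation stabilise the helix and prepare crosslinks. They were mostly higher, 8 of 12 (20.3% of all genes) against 1 lower (22.8% of all genes). P4HB, the shared subunit of prolyl 4-hydroxylase, was at 1196 to 1353 CPM in shNC and 1535 to 1686 CPM in shARID1A and rose by 0.34 (SE 0.03, adjusted p = 1.39e-11). The lysyl hydroxylase PLOD1 rose by 0.41 (SE 0.04), the collagen galactosyltransferase COLGALT1 by 0.35 (SE 0.03) and CRTAP, of the prolyl 3-hydroxylation complex, by 0.35 (SE 0.03). The arms did not overlap for these 4. PLOD2 was the member that fell, its log2 change was -0.18 (SE 0.05, adjusted p = 0.00551); it was named after its value was seen.

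Of 10 chaperone and secretion genes 1 was higher and 3 lower, beside 20.3% and 22.8% of all genes, so the role did not stand out. The COPII coat gene SEC24D had a log2 fold change of -0.39 (SE 0.04), MIA3, which loads procollagen for export, -0.35 (SE 0.04) and its partner CTAGE5 -0.62 (SE 0.17), and SEC23A rose by 0.10 (SE 0.04). In propeptide cleavage, BMP1, the C-proteinase of fibrillar procollagen, fell from 148.7 to 179.7 CPM to 84.53 to 95.75 CPM (-0.81 on the log2 scale, SE 0.04, adjusted p = 7.22e-17). The enhancers of that cleavage split, with PCOLCE at -0.32 (SE 0.10) and PCOLCE2 at 0.35 (SE 0.05), both called.

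Crosslinking genes were lower for 3 of 6 (22.8% of all genes) and higher for 1 (20.3% of all genes). The transglutaminase TGM2 fell from 71.7 to 83.46 CPM to 31.25 to 41.23 CPM (-1.21 on the log2 scale, SE 0.05, adjusted p = 2.5e-18). Lysyl oxidase, LOX, fell from 22.69 to 27.91 CPM to 9.676 to 11.63 CPM (-1.19, SE 0.07, adjusted p = 1.74e-14), and LOXL2 had a log2 fold change of -0.20 (SE 0.04). PXDN, the peroxidase that joins type IV collagen by sulfilimine bonds, was at 747.3 to 810.7 CPM in shNC and 879.5 to 930.6 CPM in shARID1A and rose by 0.22 (SE 0.03, adjusted p = 1.67e-07), as COL4A1 and COL4A2 did.

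Collagen receptors were lower for 5 of 6 (22.8% of all genes) and higher for 0 (20.3% of all genes). The integrin chains ITGA1 and ITGA2, which bind collagen as partners of ITGB1, had log2 fold changes of -0.93 (SE 0.08, adjusted p = 6.62e-11) and -1.05 (SE 0.11, adjusted p = 2.51e-09). ITGB1 was at -0.28 (SE 0.03) and MRC2, an endocytic collagen receptor, at -0.29 (SE 0.04), both called. Of the fibril-associated proteoglycans 1 of 8 listed genes passed the filter, DCN (decorin), at 0.9397 to 1.624 CPM in shNC and 0.03372 to 0.4726 CPM in shARID1A. Its log2 fold change was -2.91 (SE 0.37, adjusted p = 7.93e-08), with shARID1A libraries partly under the floor of 3 counts, so that its size is uncertain. Libraries of 1 group are enough to pass the filter, and DCN reached 0.9397 CPM or more only in shNC. The filter thus favoured a call of lower, and nothing further is read from it.

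**Figure D5:**
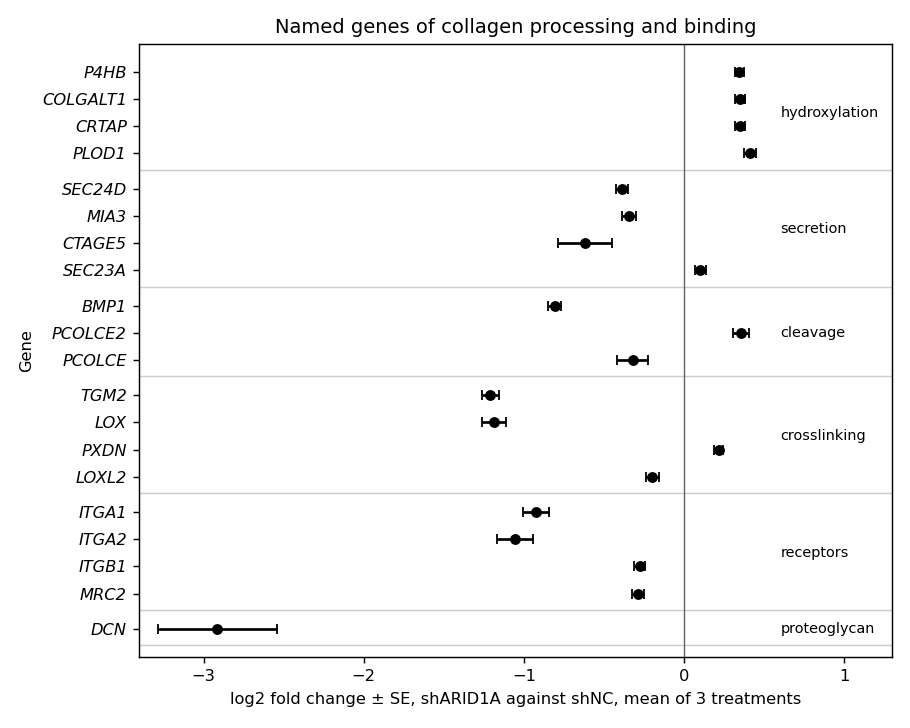
Log2 fold change ± SE in shARID1A against shNC, mean of 3 treatments, for the named genes of collagen hydroxylation, secretion, propeptide cleavage, crosslinking, reception and fibril-associated proteoglycans. The 4 hydroxylation genes lie to the right of 0 between 0.34 and 0.41, and the 4 receptor genes lie to the left between -1.05 and -0.28.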

How the data were processed

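Poly(A) RNA of 12 libraries was compared in 6 groups of 2, as the titles give them. The deposited files hold counts, whole numbers of reads per gene, to which the authors applied no normalization. The tools were Trim Galore, cutadapt, FastQC and Subread 2.0.0, with the hg19 build, per the submitters' processing notes. Counting over exons used featureCounts 2.0.0 without strand, per the file headers. The exon lengths used for RPKM are the deposited ones.

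The model was edgeR 4.0.16 in R 4.3.3 (filterByExpr, TMM, 1 model over all 12 libraries, quasi-likelihood F-test) and 17020 genes were tested. Genes were called at a Benjamini-Hochberg adjusted p under 0.05. SE is the log2 fold change divided by the root of F. DESeq2 1.42.0, other scaling, filters, a replicate block and leaving out each library were alternatives.

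Every collagen that passed the filter was named, with full statistics for those called in the mean of 3 treatments, and up to 4 genes per role with the smallest adjusted p. The members and lists were chosen with earlier results of these data known. Counted exon lengths were set beside GENCODE v29 lengths only, and no coordinates were moved between builds.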

Additional observations from a re-analysis of the deposited data

How the results depend on the processing

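Under 5 alternatives and 12 fits that each left out a library, the collagen counts higher and lower stayed within 1.5 times their values in all 10 comparisons, and no called collagen log2 fold change changed sign. Of uncalled genes with few counts, COL8A1 turned to 1.34, 0.21 and 1.43 without replicate 2 of shNC with DMSO, E2 and E2 plus fulvestrant, and COL17A1 to 0.071 and 0.056 without shARID1A DMSO replicate 1 and shARID1A E2 plus fulvestrant replicate 2. Their full ranges were -1.84 to 1.43 and -0.735 to 0.071. With no filter, a mean CPM of at least 1 or the replicate block COL4A4 was called (adjusted p = 0.0356, 0.0373 and 0.0424).

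Counts over all genes moved more. With the replicate block, 4 genes were called for E2 in shNC (1 without it) and 12 for the difference of the E2 effect (5 without it), and 9 collagens were lower in the mean of 3 treatments (8 without it). The labels do not say that a replicate number marks a shared batch. Deviations of same-numbered libraries correlated at 0.168 to 0.282 in the 3 pairs of shNC groups. Over all 15 pairs of groups they correlated at -0.228 to 0.282 with 7 over 0.1, so the numbers were not taken to pair the libraries. The 7 were all pairs among the shNC groups and shARID1A with E2 plus fulvestrant, and the pair of shARID1A with DMSO and with E2. Every other pair was negative, at -0.228 to -0.0752. Whether libraries share a source of variation that their numbers do not follow was not tested. DESeq2 called 2 genes for fulvestrant in shNC and 6 in shARID1A, 14 for the difference of the E2 effect and 1 for that of fulvestrant (1, 1, 5 and 2 by edgeR). With relative log expression factors, and with a mean CPM of at least 1, E2 in shARID1A had 1 call (4 in the main test), and the latter left 1 for the difference of the fulvestrant effect. With no filter the calls were 12 and 37 for E2 in shNC and shARID1A, 19 and 41 for fulvestrant, and 41 and 9 for the differences. The cause was not tested.

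Leaving out 1 library gave 2005 to 3353 calls for the knockdown in DMSO (3268 with all), 2748 to 4651 with E2 (4633) and 2309 to 4181 with E2 plus fulvestrant (4120). It gave 1 to 4 and 0 to 5 calls for E2 in shNC and shARID1A, 1 to 5 and 1 to 27 for fulvestrant, and 2 to 17 and 1 to 4 for the differences. The 22 collagens below the filter had too few counts for any test.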
